A study of Mus musculus with 12 samples.

Results

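Nonclassical monocytes were sorted from the lungs of mice with and without a deletion of Hif1a, and the 6 libraries made from them are described here, out of 12 libraries in the series. They were chosen by their titles and their labelled cell type, 3 libraries from deleted and 3 from control animals. Deleted animals were Hif1a Δ/Δ with Cre recombinase expressed from Cx3cr1 (Cx3cr1-cre), and control animals carried Hif1a flox/flox without Cre. Cre was therefore present in the deleted group alone, and an effect of Cre and an effect of the lost gene cannot be told apart. Cx3cr1 is active in several kinds of monocytes, macrophages and other mononuclear cells, so the deletion was not restricted to the sorted population. Every animal was of the C57Bl/6 background and had spent 3 weeks in hypoxia with weekly doses of SU5416, which blocks VEGF receptor kinases. The labels give no age, and no library came from animals in normal air or without SU5416. Each library was made from about 250 cells with a stranded total RNA kit, which keeps unspliced RNA. The other 6 libraries, from interstitial macrophages of the same 2 genotypes, enter a single comparison at the end. Libraries are called by cell type and the number in their title: NCM648, NCM657 and NCM659 are controls, and NCM649, NCM650 and NCM661 are deleted. The labels do not say whether a number stands for an animal, so p-values measure the spread between these libraries, which may in part be technical.

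Hif1a encodes the oxygen-regulated subunit of HIF-1. When oxygen is low the subunit escapes hydroxylation and degradation, pairs with its stable partner subunit and binds hypoxia response elements near genes of glucose uptake, glycolysis, iron handling and vessel growth. In myeloid cells HIF-1 is also known to be induced by NF-kB and to support glycolysis during inflammatory activation. Nonclassical monocytes are CX3CR1-high, Ly6C-low cells that depend on Nr4a1 and Cebpb, crawl along the inner wall of vessels and clear debris from it. In the lung they lie against the endothelium of a dense capillary bed.

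Gene counts per library were between 7238612 and 8583265 in controls and between 5332600 and 11169706 in deleted libraries. Non-exonic reads made up 58.1 to 66.8% of gene counts plus non-exonic reads in controls, and 72.7, 71.9 and 55.1% in NCM649, NCM650 and NCM661. Of the 12038 genes tested, NCM649 had no count for 2183 and NCM661 for 11. Pairwise correlations of log2 CPM (counts scaled to an equal effective library total) were 0.809 to 0.877 among controls and 0.679 to 0.775 among deleted libraries. The biological coefficient of variation was 0.657 in controls and 1.04 in deleted libraries, so the deleted libraries were the more variable group. NCM649 stood apart on the first principal component, at 208.5 against -53.1 to -19.4 for the other libraries. All 14 defining genes of nonclassical monocytes had counts in each of the 6 libraries, with Ace at 2164 to 3938 CPM. Of 5 defining genes of classical monocytes, 4 also had counts in each library, and Ly6c2 was between 0 and 33.1 CPM. Summed classical monocyte markers ran from 783 CPM in NCM648 to 7186 CPM in NCM657 among controls and from 793 to 1728 CPM in deleted libraries. All 10 defining genes of endothelial cells also had counts in each of the 6 libraries, so the presence of counts cannot check the label. In NCM661 summed endothelial markers were at 18300 CPM and summed nonclassical monocyte markers at 9490 CPM. In every other library the nonclassical monocyte sum was the higher of these.

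No gene passed an adjusted p of 0.05 in either direction (0% of 12038 tested; edgeR's quasi-likelihood test, Benjamini-Hochberg adjustment). At an unadjusted p under 0.05 there were 630 genes higher (5.23%) and 470 lower (3.9%) in deleted libraries. The 3 libraries of a group lay entirely above or below the other 3 for 18.5% of genes, 982 genes higher (8.16%) and 1250 lower (10.4%). Other fits of the same counts did call genes: DESeq2 called 248 higher (2.06%) and 61 lower (0.507%), and limma-voom 20 higher (0.166%) and 3 lower (0.0249%). When the interstitial macrophage libraries shared the fit and its estimate of spread, edgeR called 12 higher (0.0842%) and 48 lower (0.337%) of 14254 genes. The genes called by all of those 3 fits were Hspg2, Syne1, Myo10 and Nckap5, which were higher, and Nfkbia, Slfn2 and Cebpb, which were lower. Because the adjusted test called nothing, genes below are described as higher or lower with their values, and none is a call of the main test.

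**Figure D1:**
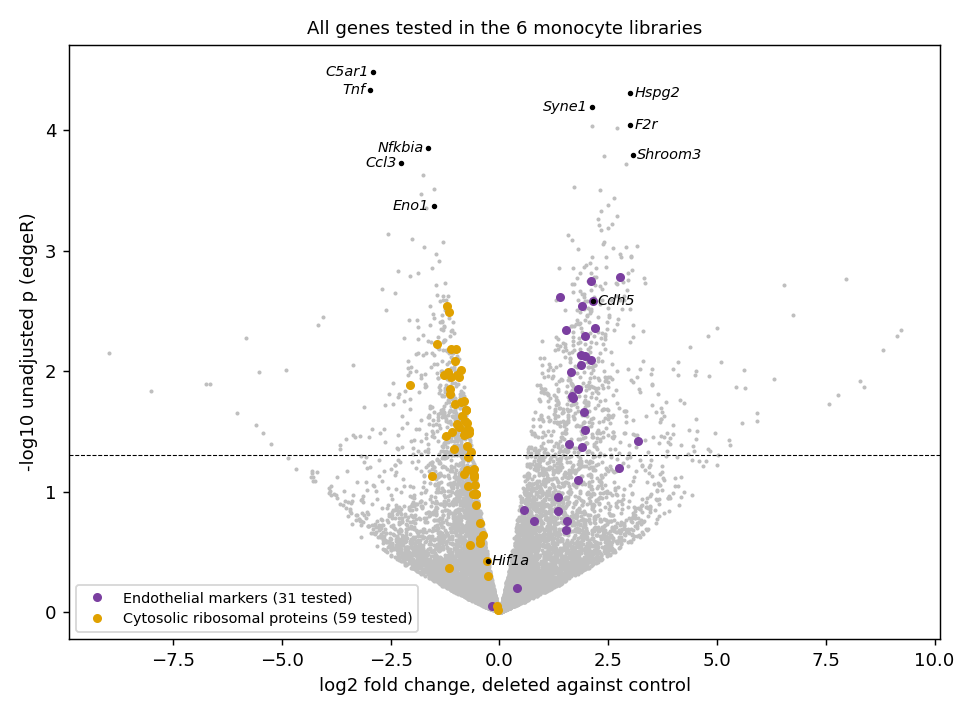
Each point is 1 of the 12038 genes tested, with its log2 fold change (deleted against control) on the x axis and -log10 of its unadjusted p on the y axis; the dashed line marks an unadjusted threshold of 0.05. Endothelial markers (purple) lie mostly to the right and ribosomal protein genes (orange) to the left, and Hif1a lies near the centre.

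Hif1a itself (chromosome 12, 73901375 to 73947530, GRCm38) was counted in controls at 241, 217 and 206 CPM (NCM648, NCM657, NCM659). In NCM649, NCM650 and NCM661 it stood at 167, 223 and 161 CPM. The groups overlapped, and the log2 fold change was -0.27 ± 0.29 (SE; adjusted p = 0.903, edgeR). Counts summed over the whole gene include transcripts that lack excised exons, so these values do not measure the deletion. Cx3cr1, which encodes the fractalkine receptor and drives Cre (chromosome 9, 119901616 to 120069879), was at 296, 165 and 184 CPM in controls and at 215, 129 and 50.1 CPM in deleted libraries. NCM661 was the lowest and the groups overlapped (log2 fold change -0.71 ± 0.49 SE, adjusted p = 0.791). Among the 33 tested genes within 2 Mb of Cx3cr1, 1 had an unadjusted p under 0.05 (3.03%, against 9.14% of all genes tested).

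The 4 named lower genes with the smallest p were C5ar1, Tnf, Nfkbia and Ccl3. C5ar1 encodes the C5a receptor of the complement system (chromosome 7, 16246743 to 16259540) and was at 109, 136 and 97.3 CPM in controls and at 16.6, 11.1 and 18.04 CPM in deleted libraries. Every deleted library was far below every control, 7.48-fold lower in the fit (log2 fold change -2.90 ± 0.42 SE, adjusted p = 0.165). Tnf, the gene of the cytokine TNF (chromosome 17, 35199381 to 35202007), was at 117, 95.8 and 94.8 CPM in controls and at 18.2, 10.03 and 11.1 CPM in deleted libraries. It was 7.82-fold lower, again with no overlap (-2.97 ± 0.45 SE, adjusted p = 0.165). Ccl3, a chemokine that attracts monocytes and lymphocytes (chromosome 11, 83647844 to 83649355), was at 122, 152 and 154 CPM against 19.8, 42.3 and 27.2 CPM. Its log2 fold change was -2.26 ± 0.40 (SE, adjusted p = 0.192).

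Nfkbia encodes IκBα, which holds NF-kB in the cytosol and is itself induced by NF-kB (chromosome 12, 55489410 to 55492647). It was at 434, 340 and 374 CPM in controls and at 121, 128 and 120 CPM in deleted libraries, so the deleted libraries agreed closely at a 3.11-fold lower level (-1.64 ± 0.28 SE, adjusted p = 0.192). Nfkbid, a nuclear relative of IκBα, was at 108, 114 and 79.0 CPM against 16.8, 23.3 and 34.2 CPM. Of the genes of metabolism, Pygl, liver glycogen phosphorylase, was at 155, 187 and 156 CPM against 55.7, 47.4 and 45.7 CPM. Eno1, the glycolytic enolase, was at 312, 361 and 304 CPM against 95.8, 140 and 108 CPM, and Dlst, a subunit of the 2-oxoglutarate dehydrogenase complex, was at 164 to 261 CPM against 75.6 to 89.3 CPM. Rac2, the GTPase of blood cells that drives NADPH oxidase and actin remodelling, was at 146, 135 and 112 CPM against 34.7, 37.6 and 40.6 CPM.

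The rest of the 15 lower genes were Fau and Gnb2l1, which encode components of the small ribosomal subunit, the schlafen gene Slfn2, the integrin gene Itgb7, the pore-forming protein gene Mpeg1 of phagocytes, and Tgfbi, an extracellular matrix protein of macrophages. All 15 were 2.47-fold to 7.82-fold lower, with adjusted p between 0.165 and 0.277. The deposited file names give 2 sequencing lanes, lane 8 for NCM648, NCM649 and NCM661 and lane 6 for NCM657, NCM659 and NCM650. Each of the 15 was lower in both lanes and kept its direction when any single library was left out. The naming rule, groups without overlap, fixed the lane directions in advance and all but fixed the others, so neither is support. In the fit that included interstitial macrophages 14 of the 15 passed the adjusted threshold (Itgb7 did not, adjusted p = 0.0837), in DESeq2 all 15 did, and in limma-voom 2 did. Eno1, Fau and Gnb2l1 have processed pseudogenes with near-identical sequence, and their counts are uncertain for that reason.

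The 3 named higher genes with the smallest p were Hspg2, Syne1 and F2r. Hspg2, the basement membrane proteoglycan perlecan (chromosome 4, 137468769 to 137570630), was at 18.6, 37.1 and 60.6 CPM in controls and at 384, 254 and 303 CPM in deleted libraries. It was 8.07-fold higher with no overlap (log2 fold change 3.01 ± 0.45 SE, adjusted p = 0.165). F2r, the thrombin receptor PAR1 (chromosome 13, 95601803 to 95618487), was at 12.4, 7.06 and 19.1 CPM against 108, 104 and 98.5 CPM. The deleted libraries were nearly equal to each other, and the difference was 8.03-fold (3.00 ± 0.48 SE, adjusted p = 0.165). Syne1, a giant protein of the nuclear envelope (chromosome 10, 5020917 to 5551482), was at 109, 134 and 126 CPM against 516.5, 380.5 and 713 CPM (2.12 ± 0.33 SE, adjusted p = 0.165).

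Myo10, an unconventional myosin of filopodia, was at 42.1, 61.7 and 67.7 CPM against 197, 239 and 316 CPM. Dock6, an exchange factor for Rac1 and Cdc42, was at 13.4, 20.3 and 26.8 CPM against 102, 112 and 180 CPM, and Shroom3, an actin regulator of cell shape, at 9.96, 7.18 and 19.97 CPM against 138, 70.5 and 104 CPM. Nckap5 was at 24.7, 43.7 and 97.1 CPM against 394, 281 and 562 CPM. The groups did not overlap for any of these genes, and NCM661 was the highest library for Syne1, Myo10, Dock6 and Nckap5.

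The other higher genes were Pdzd2, Tmtc1 and Prex2, the guidance and adhesion genes Sema5a and Pcdh17, the matrix genes Fbn1 (fibrillin-1) and Postn (periostin), and the myosin gene Myo6. All 15 were 4.36-fold to 8.41-fold higher, with adjusted p between 0.165 and 0.277, and kept their direction in both lanes and without any single library. As for the lower genes, the naming rule fixed or nearly fixed these directions in advance. Of these 15, the fit with interstitial macrophages called 6, DESeq2 called 15 and limma-voom called 9. The median genomic span of the 15 higher genes was 207 kb, and that of the 15 lower genes was 7.02 kb.

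**Figure D2:**
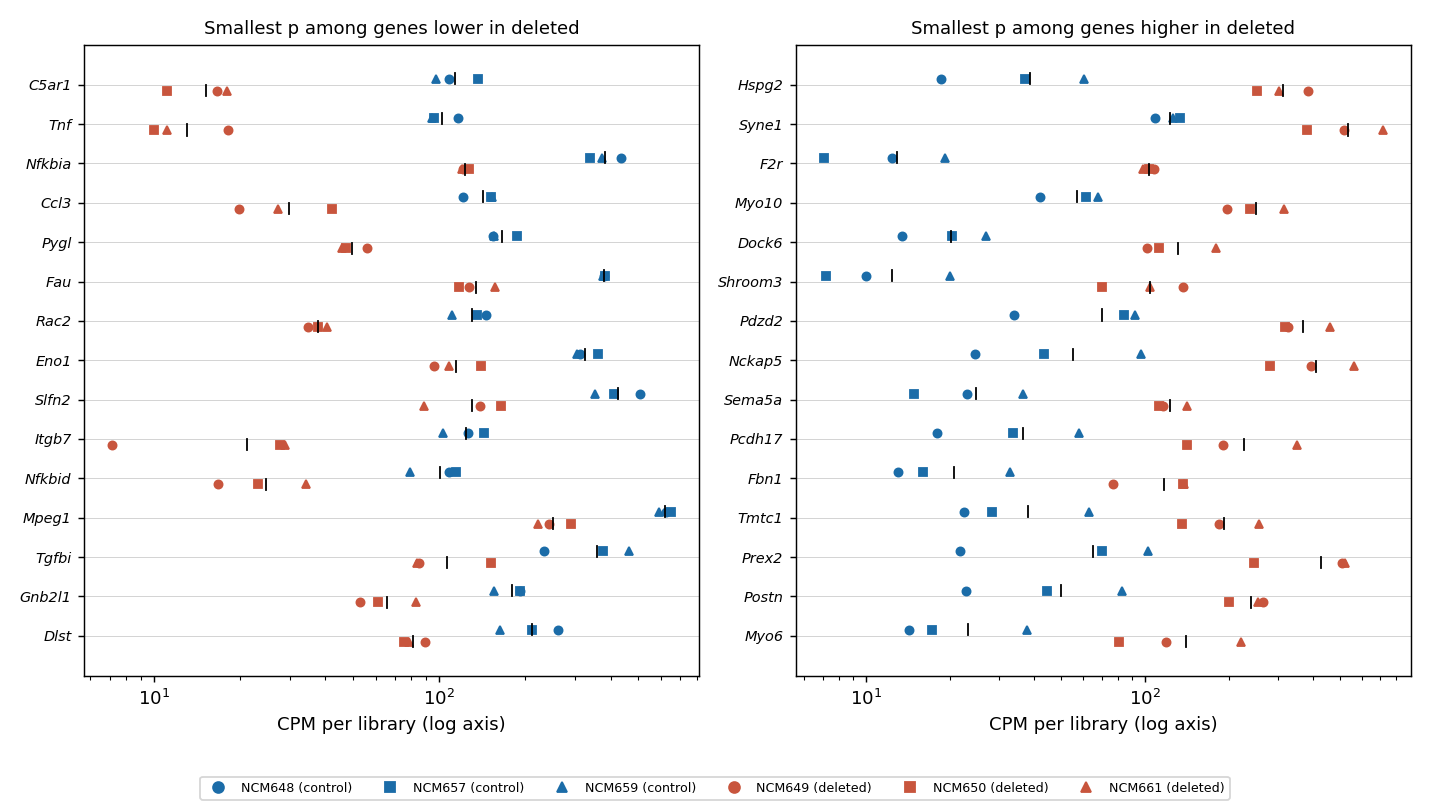
CPM (log axis) of the 15 lower (left) and 15 higher (right) genes with the smallest p, 1 point per library, with a black bar at each group mean. Control (blue) and deleted (red) libraries do not overlap for any of the 30 genes, which the rule for naming them required.

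Genes of the HIF system were described by role. Of 16 tested genes of the HIF pathway itself, 8 were below 0 and the median log2 fold change was 0.01, against -0.03 over all genes tested; it was below 0 when any single library other than NCM648 was left out. Epas1, which encodes HIF-2α and is abundant in endothelium, was at 274, 636 and 1172 CPM in controls and at 1803, 1649 and 4098 CPM in deleted libraries (log2 fold change 1.86 ± 0.55 SE, adjusted p = 0.322). Cited2, which competes with HIF-1α for its coactivator, was at 59.0, 69.9 and 59.7 CPM against 16.8, 25.3 and 21.3 CPM (-1.57 ± 0.46 SE, adjusted p = 0.313). For both genes the groups did not overlap. Summed endothelial markers, given below, were highest in NCM661, as was Epas1, and their part in the Epas1 values was not tested.

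Glucose transport and glycolysis genes were lower as a list: 22 of 27 tested members were below 0 (51.2% of all genes tested), with a median of -0.55. At unadjusted p 4 were lower and 0 higher (3.9% and 5.23% of all genes tested). Lower without overlap were 7 of 27 (10.4% of all genes tested). Their summed level was 2871, 2855 and 2467 CPM in controls and 1837, 1717 and 1787 CPM in deleted libraries, which did not overlap. The difference could not reach an exact two-sided permutation p under 0.1 with 3 libraries against 3, and p was 0.1. Gapdh was at 266, 425 and 286 CPM against 133, 131 and 144 CPM (log2 fold change -1.26 ± 0.30 SE, adjusted p = 0.277), and Pgk1, phosphoglycerate kinase, at 109, 75.7 and 79.2 CPM against 27.5, 47.5 and 43.6 CPM (adjusted p = 0.384). Gpi1, glucose-6-phosphate isomerase, was at 249, 229 and 229 CPM against 105, 102 and 168 CPM (adjusted p = 0.375). Without NCM650 the list median was -0.36 with 8 lower. Gapdh counts carry the same uncertainty from pseudogenes as those of Eno1.

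HIF-1 binds ACGTG or GCGTG, the core of the hypoxia response element, so the 250 bases before the start sites of 3 lower glycolysis genes are shown, 5′ to 3′ on the gene's strand, with matches to either core on either strand in capitals (RefSeq, GRCm38.p6). The Eno1 window is chr4:150236947-150237196 (plus strand, the second of 3 start sites), that of Gapdh chr6:125165774-125166023 (minus strand) and that of Pgk1 chrX:106186850-106187099 (plus strand).
Eno1: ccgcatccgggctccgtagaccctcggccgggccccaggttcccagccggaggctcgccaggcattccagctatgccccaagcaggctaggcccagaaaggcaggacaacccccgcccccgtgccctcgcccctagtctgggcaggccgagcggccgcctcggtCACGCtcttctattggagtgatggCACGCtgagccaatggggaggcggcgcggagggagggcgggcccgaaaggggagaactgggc
Gapdh: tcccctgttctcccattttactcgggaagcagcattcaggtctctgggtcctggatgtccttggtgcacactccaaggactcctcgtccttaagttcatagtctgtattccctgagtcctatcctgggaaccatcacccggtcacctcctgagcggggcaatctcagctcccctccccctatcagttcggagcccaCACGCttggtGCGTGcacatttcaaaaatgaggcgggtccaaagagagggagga
Pgk1: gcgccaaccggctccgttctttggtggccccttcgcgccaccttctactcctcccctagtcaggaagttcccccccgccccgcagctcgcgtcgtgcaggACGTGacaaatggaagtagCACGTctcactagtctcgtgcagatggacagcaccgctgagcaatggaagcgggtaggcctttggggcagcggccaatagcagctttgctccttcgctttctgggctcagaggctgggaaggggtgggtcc
Each window held 2 matches, at 86 and 62 bases before the start site in Eno1, 54 and 44 in Gapdh, and 150 and 131 in Pgk1. A match was found in 78.0% of 41 windows from 28 of the 29 listed glycolysis genes, in 54.8% of 11706 windows of tested genes and in 38.6% of all 32851 windows in the table. Of the 470 genes lower at unadjusted p, 54.1% of 451 windows held a match. Only 9192 of 12038 tested genes and 353 of those 470 matched the table, under 80% in each case, so these sets are incomplete. A match describes the sequence only.

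HIF targets outside glycolysis showed no common direction: 15 of 30 tested members were below 0, with a median of 0.17. Their summed level had the opposite sign, at 2556 to 2828 CPM in controls and 1930 to 2083 CPM in deleted libraries. At unadjusted p 2 were higher and 4 lower, against 5.23% and 3.9% of all genes tested. Lower were Lgals3, galectin-3, at 137, 179 and 180 CPM against 82.7, 49.4 and 47.4 CPM (adjusted p = 0.277), and Cxcr4, the receptor for CXCL12, at 724, 455 and 438 CPM against 283, 286 and 179 CPM (adjusted p = 0.333). Hmox1, heme oxygenase 1, and Bhlhe40, a transcriptional repressor, were the other members lower at unadjusted p. A higher member was Vldlr, a lipoprotein receptor, at 8.14 to 18.5 CPM in controls against 108, 10.2 and 102 CPM, where NCM650 lay within the control range. Vegfa, the ligand of the receptors that SU5416 blocks, overlapped between groups at 31.3, 41.6 and 84.9 CPM against 52.4, 86.7 and 186 CPM. The list median was 0.03 without NCM648, 0.32 without NCM659 and -0.01 without NCM661, and no member was higher at unadjusted p with lane as a covariate.

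Cytokine and NF-kB feedback genes were lower in 33 of 36 tested members, with a median of -0.77. At unadjusted p 13 were lower and 0 higher (3.9% and 5.23% of all genes tested), and 15 were lower without overlap (10.4% of all genes tested). The summed level was 9421, 8221 and 7435 CPM in controls against 5661, 5703 and 2885 CPM, lowest in NCM661. Il1b, interleukin-1β, was at 834, 838 and 586 CPM against 365, 537 and 185 CPM (log2 fold change -1.05 ± 0.40 SE, adjusted p = 0.417). Tnfaip3, the ubiquitin-editing inhibitor A20, was at 857, 892 and 847 CPM against 432, 556 and 191 CPM, and Nfkb2, the p100 subunit of NF-kB, at 150, 158 and 180 CPM against 64.8, 93.3 and 64.6 CPM. Zfp36, which promotes decay of cytokine mRNA, was at 926 to 1226 CPM against 591 to 682 CPM. Genes that transmit and genes that restrain the NF-kB signal were thus both lower in level. The list median was -1.25 without NCM650. The median was -0.56 in lane 6 and -1.06 in lane 8.

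NF-kB dimers bind the κB site, and matches to the NF-kB consensus were searched on both strands of the same kind of window. The Nfkbia window (RefSeq, GRCm38.p6, chr12:55492648-55492897, minus strand) held 1 match, in capitals, which begins 29 bases before the start site.
Nfkbia: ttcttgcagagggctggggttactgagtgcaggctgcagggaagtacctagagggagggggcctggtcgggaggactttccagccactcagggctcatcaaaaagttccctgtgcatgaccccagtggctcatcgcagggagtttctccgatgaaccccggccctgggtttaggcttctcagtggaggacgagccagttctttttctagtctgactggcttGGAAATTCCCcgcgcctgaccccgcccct
A match was found in 38.5% of 39 windows from 31 of the 37 listed cytokine and NF-kB genes, in 8.93% of 11706 windows of tested genes and in 7.25% of all 32851 windows. The Tnf, C5ar1 and Ccl3 windows held none. At unadjusted p, 15.5% of 451 windows of lower genes and 10.5% of 629 windows of higher genes held a match. These sets are incomplete, with 353 of 470 and 474 of 630 genes matched to a window. The listed genes were chosen for known roles in this pathway, and a match describes the sequence only.

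Chemokine genes were mostly lower, with Cxcl12 as an exception. Of 17 tested, 13 were below 0 (median -1.54), 7 were lower and 1 higher at unadjusted p (3.9% and 5.23% of all genes tested). Cxcl2, which attracts neutrophils, was at 59.6, 182 and 216 CPM against 38.6, 37.2 and 11.7 CPM (log2 fold change -2.39 ± 0.59 SE, adjusted p = 0.277). Ccl9 was at 111, 221 and 144 CPM against 61.8, 67.6 and 34.5 CPM, and Ccl6 at 230, 431 and 328 CPM against 196, 124 and 111 CPM. Cxcl12, which stromal and endothelial cells produce, was higher at 684, 492 and 1419 CPM against 141, 191 and 398 CPM (1.83 ± 0.50 SE, adjusted p = 0.299). The list median was -1.97 in lane 6 and 1.52 in lane 8, so the direction of the list did not hold within lane 8, whose control arm is NCM648 alone. Summed chemokine levels overlapped, at 773 to 1567 CPM in controls and 815 to 1684 CPM in deleted libraries (exact p = 1.0). Ccl3 itself was lower in both lanes, which the rule for naming it required.

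Receptors for chemoattractants and complement gave 16 of 18 below 0 (median -1.15), with summed levels of 1448 to 1743 CPM in controls and 947 to 1022 CPM in deleted libraries. Of the 18 receptors 6 were lower and 1 higher at unadjusted p, against 3.9% and 5.23% of all genes tested. Beside C5ar1 and Cxcr4 they included Ccrl2, an atypical receptor that presents chemerin (170, 85.1 and 112 CPM against 32.2, 53.4 and 36.5 CPM), and Cmklr1, the signalling receptor for chemerin (17.2, 71.8 and 42.2 CPM against 9.29, 10.03 and 11.1 CPM). S1pr1, a sphingosine 1-phosphate receptor that endothelium expresses strongly, was the higher member, at 46.2, 101.2 and 136 CPM against 157, 268 and 439 CPM. Without NCM649 the list median was -1.75 with 9 lower, and 3 members were lower without NCM657 or with lane as a covariate.

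Genes of phagocyte function were lower in level across several lists. Over all genes tested, 3.9% were lower and 5.23% higher at unadjusted p. Fc gamma and paired receptors had 25 of 26 members below 0 (median -0.81, 9 lower and 0 higher at unadjusted p). Fcgr4, an activating IgG receptor that marks nonclassical monocytes, was at 231, 106 and 68.9 CPM against 38.4, 33.2 and 25.6 CPM (log2 fold change -2.06 ± 0.49 SE, adjusted p = 0.277). The median of this list was -1.42 without NCM650 and -0.47 without NCM661. It was -0.26 in lane 6 and -1.27 in lane 8. Lysosomal hydrolases and proton pump subunits had 34 of 44 below 0 (median -0.61, 12 lower and 0 higher), with Ctsa, cathepsin A, at 242 to 293 CPM against 98.7 to 136 CPM and Psap, prosaposin, at 1340 to 1901 CPM against 625 to 1123 CPM. Leukotriene and prostanoid genes had 14 of 18 below 0 (median -0.59, 2 lower and 0 higher), with -1.05 in lane 6 and 0.08 in lane 8. Among them Alox5ap, the activating protein of 5-lipoxygenase, was at 75.2, 62.9 and 84.7 CPM against 18.9, 24.5 and 17.7 CPM (adjusted p = 0.277). Of 20 tested Toll-like receptor genes 4 were lower and 1 higher, with 2 lower without NCM657, 8 without NCM649 and 0 higher without NCM648, NCM657, NCM650 or NCM661. The LPS co-receptor Cd14 was at 91.7, 280 and 203 CPM against 58.6, 77.4 and 22.3 CPM. The share of monocyte RNA in each library, and its part in these and the other lower lists, was not tested.

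Adhesion, lipid and antigen presentation lists were smaller and less even. Their counts stand against 3.9% lower and 5.23% higher of all genes tested at unadjusted p. Of 16 tested leukocyte integrin and adhesion genes, 5 were lower and 2 higher at unadjusted p. Itgam and Itgax, the myeloid integrin chains CD11b and CD11c, were at 1154, 1265 and 1222 CPM against 572, 774 and 277 CPM and at 476, 258 and 278 CPM against 140, 182 and 92.7 CPM. Pecam1 and Itga6, which endothelium also expresses, were the higher members, at 235 to 448 CPM against 618 to 1506 CPM and at 30.03 to 111 CPM against 197 to 410.5 CPM. Lipid handling genes had 15 of 20 below 0 (median -0.58, 5 lower and 0 higher). Apoe, apolipoprotein E, was at 1320, 1916 and 1776 CPM against 924, 756.5 and 283 CPM, lowest in NCM661, and the list median without that library was -0.29. Without NCM657 or NCM659 3 members of the list were lower. MHC class II genes had 10 of 12 below 0 (median -0.79, 2 lower and 0 higher) but -1.27 in lane 6 and 0.68 in lane 8. Without NCM657 its median was -0.37 with 1 lower, without NCM648 6 were lower, and H2-Aa overlapped between groups. Growth factors acting on vessels had a median of 0.38, which was 1.07 without NCM659 and -0.02 without NCM661. Among them Tgfb1, transforming growth factor β1, was lower at 205, 204 and 186 CPM against 108, 105 and 84.9 CPM (log2 fold change -0.999 ± 0.29 SE, adjusted p = 0.322).

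The actin machinery of leukocytes had 38 of 39 members below 0 (median -0.77). At unadjusted p 18 were lower and 0 higher (3.9% and 5.23% of all genes tested). Its summed level was 29660, 27250 and 23300 CPM in controls and 16830, 17330 and 13540 CPM in deleted libraries. Pstpip1, an adaptor between membrane and actin, was at 73.6, 44.8 and 46.2 CPM against 8.75, 10.5 and 13.5 CPM (log2 fold change -2.33 ± 0.54 SE, adjusted p = 0.277). Coro1a, coronin 1A, was at 401 to 524 CPM against 126 to 266 CPM, and Actb at 6235, 6483 and 4490 CPM against 2470, 2750 and 2724 CPM. Actb also has processed pseudogenes. Without NCM657 8 members were lower at unadjusted p.

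Immediate early genes had 26 of 28 members below 0 (median -0.71), with 11 lower and 0 higher at unadjusted p (3.9% and 5.23% of all genes tested). Summed levels were 12450, 10640 and 12000 CPM in controls and 7383, 7727 and 7810 CPM in deleted libraries, with little spread inside the deleted group. Nr4a1, on which nonclassical monocytes depend, was at 3105, 2194 and 2015 CPM against 1469, 1445 and 578 CPM (log2 fold change -1.07 ± 0.40 SE, adjusted p = 0.417). Junb was at 344, 445 and 376 CPM against 113, 193 and 270 CPM, and the phosphatase gene Dusp1 at 465 to 601 CPM against 245 to 363 CPM. With lane as a covariate 5 members were lower at unadjusted p, and 5, 5, 7, 6 and 7 without NCM648, NCM657, NCM659, NCM649 and NCM650.

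All 59 ribosomal protein genes tested were below 0, with a median of -0.79. At unadjusted p 35 were lower and 0 higher (3.9% and 5.23% of all genes tested). In 47 of 59 the deleted libraries were lower without overlap (10.4% of all genes tested). Their summed level was 13450, 16020 and 14310 CPM in controls and 8225, 8296 and 9063 CPM in deleted libraries, 1.71-fold lower (exact two-sided permutation p = 0.1, the smallest 3 against 3 allow). Rpl23 was at 369 to 389 CPM against 133 to 224 CPM, and Rps3 at 263 to 295 CPM against 91.1 to 149 CPM. The median was between -0.85 and -0.70 without any single library, but 10 members were lower at unadjusted p without NCM657 and 19 without NCM659 or with lane as a covariate. Most of these genes have processed pseudogenes, so their counts are uncertain. Genes of the proteasome, another list of short housekeeping genes, had a median of -0.26 and none past the unadjusted threshold. Oxidative phosphorylation genes had 38 of 49 below 0 (median -0.45) with 1 lower and 0 higher, and -0.29 without NCM659 or -0.76 without NCM661, where 5 were lower.

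**Figure D3:**
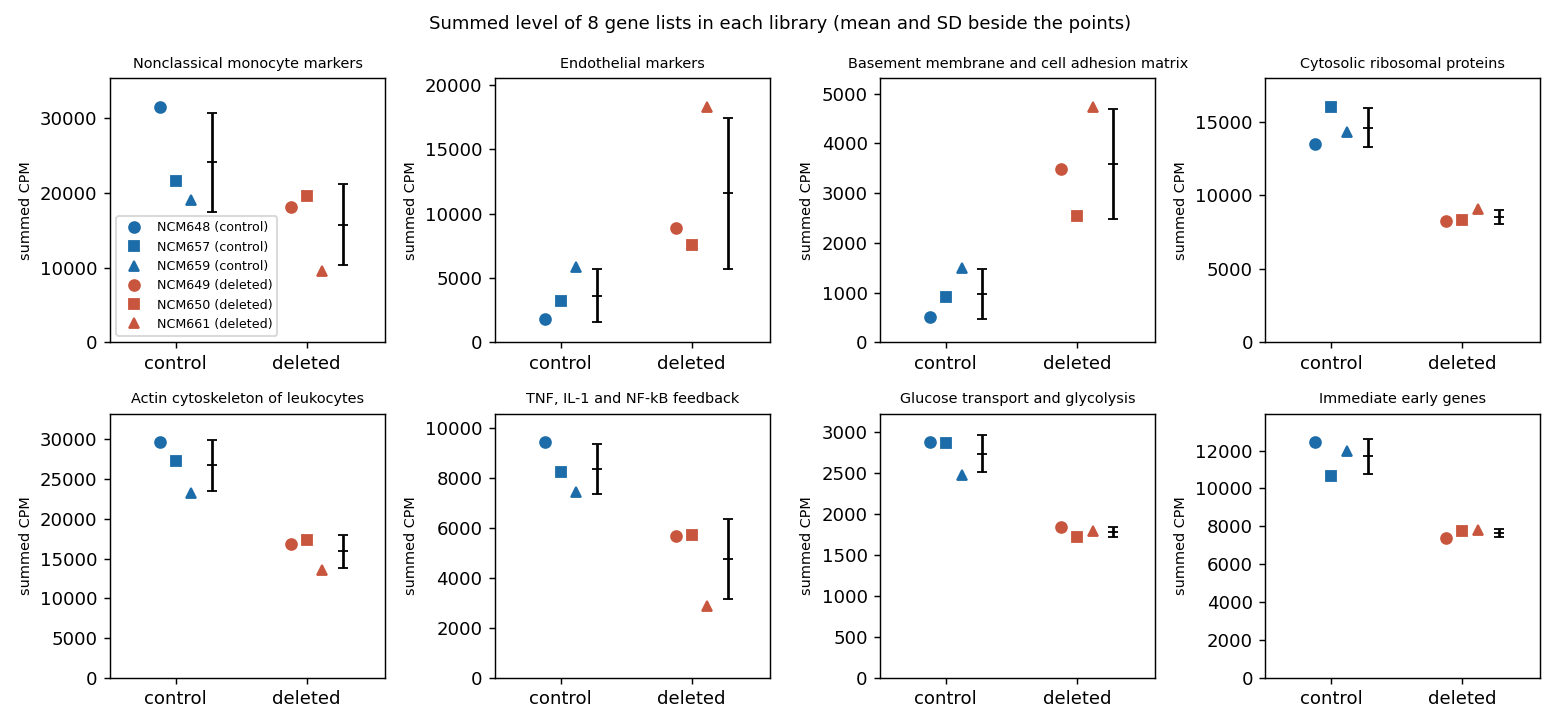
Summed CPM of 8 gene lists in each library, with the mean and SD (n = 3) of each group beside the points. Control and deleted libraries do not overlap for the lists shown except the nonclassical monocyte markers, where NCM661 has the lowest level; it also has the highest level of endothelial markers.

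Markers of the sorted cells were mostly lower, though hardly so within lane 6, and those of vessel wall cells were higher. Of 39 tested nonclassical monocyte markers 37 were below 0 (median -0.71). At unadjusted p 11 were lower and 0 higher (3.9% and 5.23% of all genes tested). Their summed level was 31540, 21610 and 19070 CPM in controls and 18170, 19560 and 9490 CPM in deleted libraries, so the groups overlapped (exact p = 0.2). Cebpb was at 1017, 777 and 744 CPM against 356, 345 and 172 CPM (log2 fold change -1.54 ± 0.36 SE, adjusted p = 0.277), and Spn, CD43, at 1917, 1226 and 1118 CPM against 841, 891 and 354 CPM. Ace was at 3938, 3033 and 2739 CPM against 2570, 2739 and 2164 CPM. Without NCM661 the list median was -0.41 with 7 lower, and without NCM648 it was -0.42 with 4 lower. The list median was -0.09 in lane 6, where that of all genes tested was -0.15, and -1.33 in lane 8. In bulk libraries fewer cells of a type and less RNA per cell cannot be told apart.

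Endothelial markers were above 0 in 30 of 31 members, with a median of 1.81. At unadjusted p 21 were higher and 0 lower (5.23% and 3.9% of all genes tested). Summed over the list, controls had 1772, 3233 and 5845 CPM and deleted libraries 8871, 7576 and 18300 CPM (NCM661). The groups did not overlap (exact two-sided permutation p = 0.1), and the gap between NCM659 and NCM650 was smaller than the range of the controls. Cdh5, VE-cadherin, was at 138, 281 and 631 CPM against 1385, 980 and 2318 CPM (log2 fold change 2.16 ± 0.55 SE, adjusted p = 0.277). Tie1, an endothelial receptor kinase, was at 27.9, 46.3 and 91.2 CPM against 195, 149 and 370 CPM, and Kdr, VEGF receptor 2, the target of SU5416, at 73.8, 92.2 and 244 CPM against 336, 279 and 897 CPM. Without NCM661 the list median was 1.14 and 10 members were higher, and with lane as a covariate 13 were higher. The median was 0.65 in lane 6 and 3.34 in lane 8.

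Basement membrane genes had 19 of 20 above 0 (median 1.74), with 9 higher and 0 lower at unadjusted p (5.23% and 3.9% of all genes tested). Summed levels were 505, 917 and 1493 CPM against 3482, 2547 and 4740 CPM. Col4a1, a collagen IV chain, was at 99.2, 190 and 366 CPM against 602, 720 and 1215 CPM, and Itga3, a laminin receptor subunit, at 9.67, 23.3 and 31.8 CPM against 170, 58.1 and 167 CPM. Among 20 markers of fibroblasts and smooth muscle the median was 1.18, with 8 higher and 0 lower, and 3 higher without NCM661. Epithelial markers had a median of 0.89 with 1 higher and 1 lower, and were 0.41 without NCM648, 1.49 without NCM659 and 0.56 without NCM661. The part of endothelial RNA in the higher genes Hspg2, F2r, Syne1 and the others named above was not tested.

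Markers of other leukocytes were mixed. Counts at unadjusted p stand against 3.9% lower and 5.23% higher of all genes tested. Interstitial macrophage markers had 29 of 32 below 0 (median -0.95, 8 lower and 0 higher), with -1.38 in lane 6 and 0.37 in lane 8. The lower members numbered 4 without NCM657, 3 without NCM659 or with lane as a covariate, and 12 without NCM648. Summed markers of T, NK and innate lymphoid cells were at most 239 CPM and those of B and plasma cells at most 119.5 CPM in any of the 6 libraries. Retnlg, a neutrophil gene, had no count in 5 of the 6 libraries, which allows up to 3 counts of a library's total. Other defining neutrophil genes had more: S100a9 was at 12.1 CPM in NCM657 and 24.1 CPM in NCM649, and S100a8 at 4.67 CPM in NCM657. Elsewhere both were at most 0.6645 CPM. Summed neutrophil markers were at 359 to 440 CPM in controls and 123 to 293 CPM in deleted libraries. Much of these sums came from genes outside the defining markers, so they do not measure neutrophil content. Trem1 was at 188 to 299 CPM in controls and 30.2 to 128 CPM in deleted libraries, and Csf3r at 51.2 to 111 CPM and 23.5 to 109 CPM. Interferon-stimulated genes had a median of 0.21 with 1 higher, Slfn5 (33.8, 50.2 and 87.6 CPM against 187, 154 and 388 CPM), and 1 lower, Slfn2, both members of the schlafen family. That median was below 0 in limma-voom (-0.60), with lane (-0.34) or the non-exonic share (-0.26) as a covariate, without NCM661 (-0.21) and without NCM659 (-0.03), so the list had no settled sign.

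**Figure D4:**
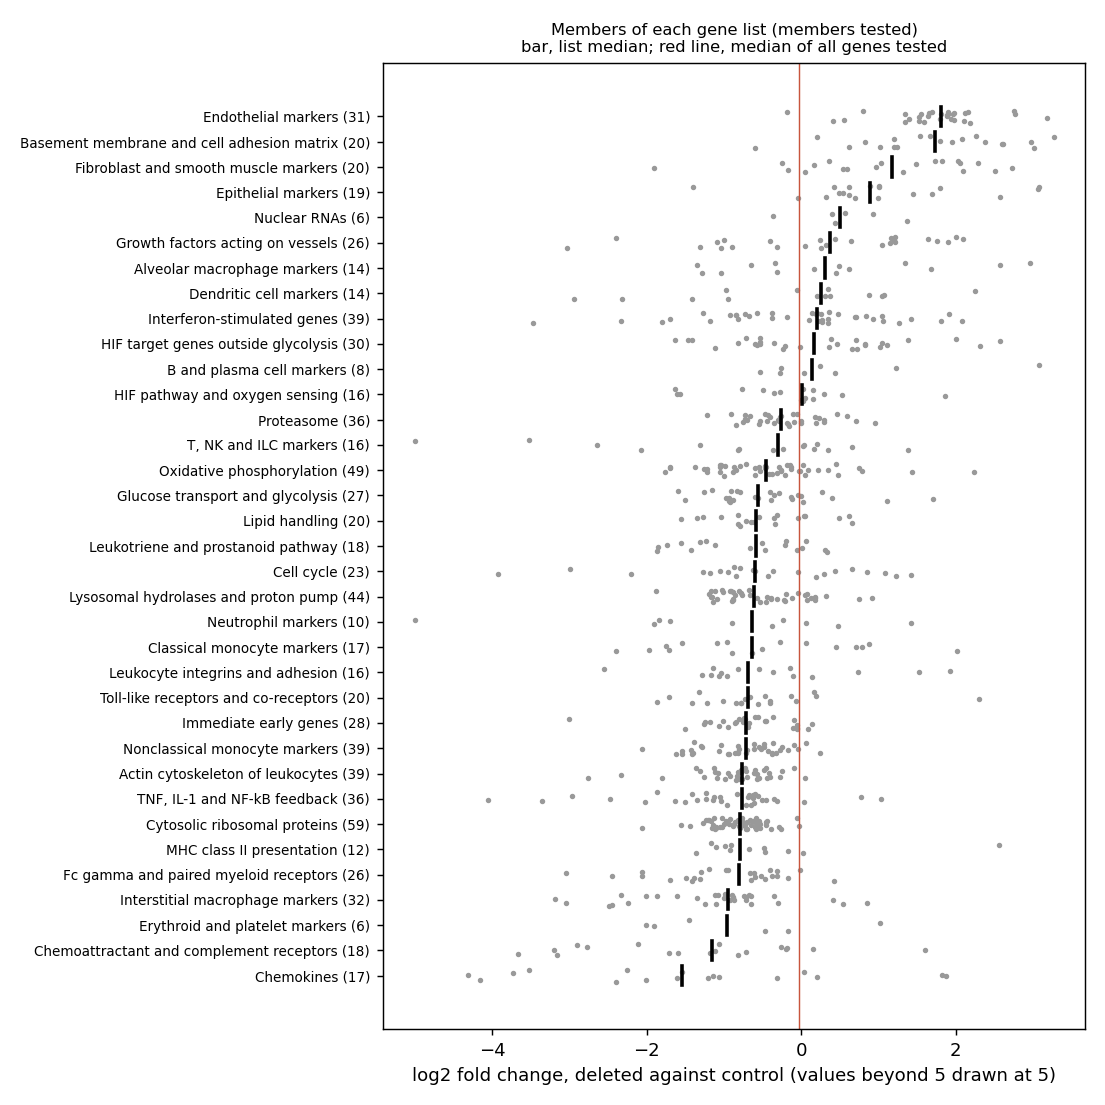
Log2 fold change (deleted against control, x axis) of every tested member of 35 gene lists, 1 grey point per gene, ordered by the list median (black bar), with the median of all genes as a red line. Endothelial and basement membrane lists lie highest and chemokine and chemoattractant receptor lists lowest.

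The direction of the differences varied with genomic span. Genes were put in 10 bins by the length from first to last annotated base (11715 genes with a single GENCODE M21 gene). In the shortest bin the median log2 fold change was -0.43, with 1.28% of genes higher and 8.45% lower at unadjusted p. In the longest bin it was 0.40, with 15.7% higher and 2.13% lower. The bin medians were ordered by span with the exception of the fifth. The median span was 64.7 kb for genes higher at unadjusted p, 15.01 kb for those lower and 24.9 kb for all tested. Without any single library the shortest bin stayed between -0.61 and -0.36 and the longest between 0.35 and 0.43. Across genes, which are not independent replicates and share libraries and depth, Pearson's r of log2 fold change with log10 span was 0.20 and Spearman's rho 0.21.

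Per library, genes over 100 kb took 17.3, 15.8 and 16.7% of counts in controls and 22.7, 21.7 and 17.2% in NCM649, NCM650 and NCM661, so NCM661 lay within the control range. Genes under 10 kb took 18.1, 16.8 and 17.6% in controls and 15.9, 15.6 and 14.3% in deleted libraries, without overlap (exact two-sided permutation p = 0.1). Kcnq1ot1, a long nuclear RNA antisense to Kcnq1, was at 190, 195 and 183 CPM against 601, 538 and 330 CPM (log2 fold change 1.37 ± 0.32 SE, adjusted p = 0.277); whether counting used strand is not given, so its reads and those of its partner cannot be told apart. Malat1, another nuclear RNA, overlapped between groups. The share of non-exonic reads overlapped between the groups (exact two-sided permutation p = 0.4). The part of span and of non-exonic RNA in the ribosomal, actin and endothelial lists was not tested.

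**Figure D5:**
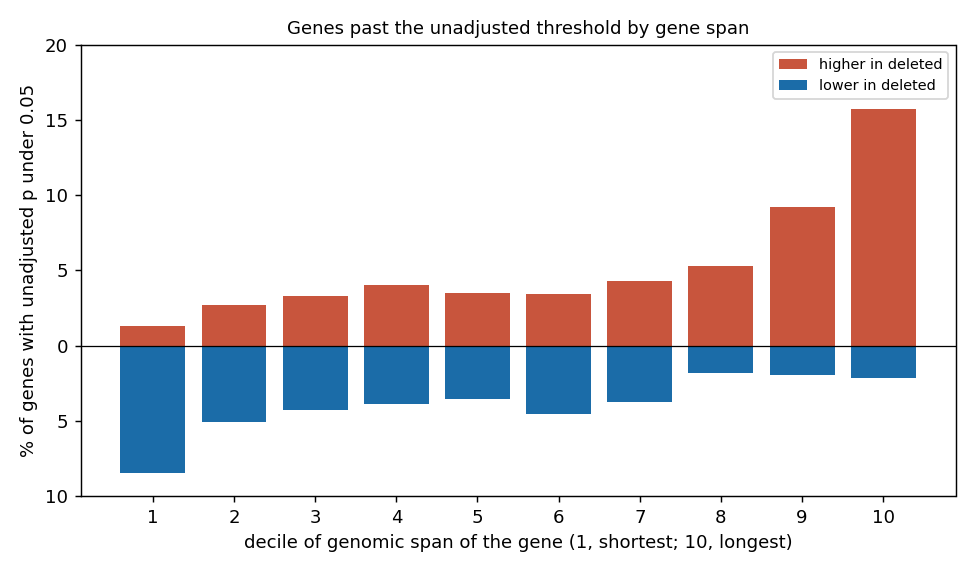
Percentage of genes with an unadjusted p under 0.05 that were higher (red, upward) or lower (blue, downward) in deleted libraries, for 10 bins of genomic span from shortest (1) to longest (10). The higher share is 1.28% in bin 1 and 15.7% in bin 10, and the lower share is 8.45% in bin 1 and 2.13% in bin 10.

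Whether these differences were particular to nonclassical monocytes was asked by testing the genotype effect in these cells minus that in interstitial macrophages over all 12 libraries. No gene of 14254 passed the adjusted threshold (edgeR), and at unadjusted p 394 were above 0 (2.76%) and 877 below (6.15%). C5ar1 had a difference of -2.24 log2 units (adjusted p = 0.138), Tnf of -2.17 (adjusted p = 0.279) and F2r of 3.72 (adjusted p = 0.310). For Eno1 the difference was -0.37 (adjusted p = 0.820) and for Gapdh -0.23 (adjusted p = 0.898). The median difference was -1.22 for the cytokine and NF-kB list, -0.23 for glycolysis, 0.09 for ribosomal proteins and 1.68 for endothelial markers, against -0.20 over all genes tested. No difference between the cell types was therefore called for any named gene, which does not show that the effects were alike.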

How the data were processed

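RNA was measured by stranded total RNA sequencing in sorted lung cells. The deposited values are raw read counts per gene in 1 file per library. The submitters' processing notes name cutadapt 1.12, TopHat2 2.1.1, HTSeq 0.6.0 and GRCm38 (mm10); annotation and strand setting: not given in the sources used here. Each file held 26608 gene rows and 5 HTSeq summary rows, which hold 58.3 to 74.1% of the reads of these libraries and were left out of library sizes and tests.

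Groups came from the titles. Counts from the 6 nonclassical monocyte libraries were fitted alone with edgeR 4.0.16 in R 4.3.3 (TMM scaling, filterByExpr with a minimum count of 10, robust quasi-likelihood test, Benjamini-Hochberg adjustment, threshold 0.05), with no covariate. CPM are counts scaled to an equal effective library total. Exact permutation tests of single values were two-sided. Alternatives were RLE scaling, DESeq2 1.42.0, limma-voom (limma 3.58.1), a fit without the robust option, other filters, lane or non-exonic share as covariates, all 12 libraries, and each library left out; their effect is given at the end. The difference between cell types was fitted over all 12 libraries. Scripts were tested on simulated data.

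Named genes were the 15 per direction with the smallest p whose mean log2 CPM was 4 or more and whose groups did not overlap. To these were added Hif1a, Cx3cr1, and up to 6 or 12 members of each list by smallest p. Ace, Ly6c2, Retnlg, S100a8 and S100a9 are defining markers. Of 26608 symbols 24494 matched a single GENCODE M21 gene, and 940 of 949 list entries were in the files. The libraries compared and the lists were chosen with earlier results of these data known, so no count over a list is independent evidence.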

Additional observations from a re-analysis of the deposited data

How the results depend on the processing

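The number of genes past the adjusted threshold was 0 in both directions with RLE scaling, without the robust option, with the stricter filter, with lane as a covariate and without any single library. It was 248 higher and 61 lower with DESeq2, 20 and 3 with limma-voom, 300 and 74 without the filter on low counts, 12 and 48 in the fit of all 12 libraries, and 155 and 179 with the non-exonic share as a covariate; the cause was not tested. At unadjusted p, 996 genes were higher without the filter and 1057 in the fit of all 12 libraries, against 630. Genes lower were 721 with limma-voom, 1244 in the fit of all 12 libraries and 930 with the non-exonic share, against 470. Leaving out each library in turn gave 470 to 790 higher and 208 (without NCM657) to 982 (without NCM661) lower; without NCM648 and NCM659 there were 299 and 298 lower. The median of the HIF pathway list turned to -0.30 with the non-exonic share, -0.16 without NCM649 and -0.19 without NCM661 (0.0087, the highest, without NCM648), and that of interferon-stimulated genes to -0.60 with limma-voom, -0.34 with lane, -0.26 with the non-exonic share, -0.21 without NCM661 and -0.03 without NCM659. With the non-exonic share as a covariate, members lower at unadjusted p numbered 33 for nonclassical monocyte markers, 31 for actin, 20 for cytokine and NF-kB, 18 for Fc and paired receptor genes, 9 each for lipid, Toll-like receptor and integrin genes and 7 for glycolysis. No named gene changed direction in any of the 15 alternatives, but most were named for a small p or for groups without overlap, which favours that. For the difference between cell types DESeq2 called 22 genes above and 40 below 0, and leaving out each of the 12 libraries gave 0 to 34 below, with 34 without NCM661 and 1 without NCM649. No paired analysis was possible because control and deleted monocyte libraries share 0 numbers. With the replicate block over the 5 numbers shared by cell types, the difference between cell types had 0 calls in either direction. Deviations of libraries with the same number correlated at -0.07 to 0.08. In variable libraries of different cell types this cannot show whether a shared number links them. With 3 libraries a group and about 250 cells each, low counts limit precision: NCM649 had no count for 2183 of the tested genes.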
